A study of Caenorhabditis elegans with 2 samples.

Results

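Of the annotated nuclear tRNA genes of Caenorhabditis elegans, 276 (45.1%) lie on the X chromosome and 336 on the 5 autosomes. These 276 genes are described here through the regions that CEH-6, a POU homeodomain transcription factor, gave at them in chromatin immunoprecipitation with sequencing (ChIP-seq). They are all WBcel235 genes of biotype tRNA on X, so annotation alone and no measured value decided which genes are members. The choice of this group was made with earlier results of these data known. Each gene was given the region of highest signal whose summit lay within 100 bp of the gene, or none, in each deposited list. The 336 autosomal tRNA genes and windows tiled along X serve as background.

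Both samples came from strain OP748, which carries the integrated transgene wgIs748 (ceh-6::TY1 EGFP 3xFLAG, with unc-119(+) as marker, and the tag at the C-terminus) in the unc-119(ed3) mutant of a VC2010 background. They were whole late embryos of mixed sex, obtained by egg bleaching, and the label gives their age as 3.3 hours without saying from when. Chromatin was sonicated to a size range of 200 to 800 bp, per the labels, and precipitated with an anti-GFP antibody. The 2 biological replicates form 1 group; no other genotype, stage or mock precipitation belongs to the design, and the lists were made against 1 control. The 2 replicate lists and the list from pooled reads hold 30000 regions each. The 741 peaks of the irreproducible discovery rate (IDR) procedure are, by coordinates and signal, exactly the 741 strongest regions of the pooled list. Read depth is unknown, the scale of the authors' signal is not stated, and signals are compared within a list only.

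Transfer RNA genes are short and are transcribed by RNA polymerase III. Its factor TFIIIC binds promoter elements inside the gene, the A box and the B box, and TFIIIB then settles just upstream of the start, where it recruits the polymerase. A run of T after the gene ends transcription. Many tRNA genes exist as identical copies, so their coding sequence is the same at loci with different surroundings. In ChIP-seq, strongly transcribed tRNA genes are known to give regions with many unrelated antibodies and tagged proteins. No untagged or mock list was used here, so such signal and sites of CEH-6 cannot be told apart at these genes.

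There are 3 kinds of sequence that carry the results below, all from the RefSeq copy of WBcel235 and written 5′ to 3′ on the strand of the gene. The first are 3 of the genes themselves, with the B box core GGTTCGA in capitals where it occurs. C04A11.t1, a leucine tRNA gene at chrX:13665555-13665673 (plus strand), had the highest signal of all 276. C06G1.t1 at chrX:16634830-16634901 (minus strand) is the strongest of the 8 identical histidine genes on X. F46G11.t2 at chrX:5801211-5801282 (minus strand) is the strongest of 13 identical proline genes, the largest identical set on X, and lacks the exact core.
C04A11.t1: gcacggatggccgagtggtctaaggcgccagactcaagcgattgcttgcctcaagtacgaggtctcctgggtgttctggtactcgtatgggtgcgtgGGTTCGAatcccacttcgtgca
C06G1.t1: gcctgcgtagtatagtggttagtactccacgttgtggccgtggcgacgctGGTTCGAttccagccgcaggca
F46G11.t2: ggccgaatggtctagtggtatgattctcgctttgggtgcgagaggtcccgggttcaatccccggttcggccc

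The second are 2 of the 7 identical threonine genes on X, shown with 100 bases on each side because the gene (capitals) is the same while the flanks and the CEH-6 signal are not. ZK563.t1, at chrX:3371322-3371593 (minus strand, with flanks), lies in an intron of ZK563.2. Its signal was 401 in the pooled list (rank 74), 145 in replicate 1 (rank 97) and 257 in replicate 2 (rank 59). F43E12.t1, at chrX:7176883-7177154 (minus strand, with flanks), is intergenic. It had a region in none of the 3 lists, and the nearest pooled summit lay 5944 bp away.
ZK563.t1: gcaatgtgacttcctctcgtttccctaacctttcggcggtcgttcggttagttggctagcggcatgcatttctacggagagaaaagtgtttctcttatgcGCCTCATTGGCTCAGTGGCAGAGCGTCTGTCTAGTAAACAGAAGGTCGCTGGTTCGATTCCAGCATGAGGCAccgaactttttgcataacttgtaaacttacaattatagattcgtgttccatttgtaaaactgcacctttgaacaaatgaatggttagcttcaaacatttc
F43E12.t1: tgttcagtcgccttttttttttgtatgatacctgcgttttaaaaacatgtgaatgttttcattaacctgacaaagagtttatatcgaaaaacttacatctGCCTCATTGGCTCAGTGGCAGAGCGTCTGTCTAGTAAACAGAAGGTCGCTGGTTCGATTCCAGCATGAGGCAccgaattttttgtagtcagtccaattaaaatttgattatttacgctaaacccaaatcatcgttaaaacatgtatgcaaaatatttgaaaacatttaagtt

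The third are the 100 bases before 5 genes, with hexamers of a CT repeat (TCTCTC or its shifted form CTCTCT) or of a GA repeat (GAGAGA or its shifted form AGAGAG) in capitals. C04A11.t1 (chrX:13665455-13665554, plus strand), W03G11.t1 (chrX:12106220-12106319, minus strand) and C02B4.t2 (chrX:12665128-12665227, plus strand) are the 3 genes of highest signal. C42D8.t1 (chrX:5085696-5085795, minus strand) is the strongest of 10 identical isoleucine genes on X, and C29F7.t1 (chrX:13435866-13435965, plus strand) is a copy of that gene with no region in any list.
C04A11.t1: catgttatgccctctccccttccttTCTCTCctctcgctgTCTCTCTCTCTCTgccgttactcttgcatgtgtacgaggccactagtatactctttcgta
W03G11.t1: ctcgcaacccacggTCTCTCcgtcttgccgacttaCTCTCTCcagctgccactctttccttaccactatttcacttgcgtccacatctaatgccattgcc
C02B4.t2: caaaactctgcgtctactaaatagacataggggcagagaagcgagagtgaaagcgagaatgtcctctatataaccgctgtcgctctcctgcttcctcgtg
C42D8.t1: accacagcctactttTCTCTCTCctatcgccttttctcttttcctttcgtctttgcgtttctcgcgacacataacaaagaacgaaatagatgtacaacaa
C29F7.t1: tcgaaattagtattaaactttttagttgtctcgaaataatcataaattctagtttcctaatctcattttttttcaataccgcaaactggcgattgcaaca

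The X tRNA genes ranged from strongly marked ones, through genes with a weak region, to genes with none. An IDR peak lay at 88 of the 276 (31.9%, exact 95% interval 26.4 to 37.7%), against 111 of the 336 autosomal tRNA genes (33%, 28 to 38.4%). Over all nuclear tRNA genes the share was 32.5%, and over 72-bp windows tiled along X away from tRNA genes it was 0.178%. The X share was therefore near that of tRNA genes in general and far above that of other X sequence. The intervals here and below cover counting error only, and genes that share a region are not independent.

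The 88 genes were served by 86 distinct peaks, because 2 peaks each lay within reach of 2 genes. X holds 200 of the IDR peaks, and these 86 made up 43% of them. Among the 100 strongest pooled regions, 27 lay on X, and 26 of those 27 were at X tRNA genes. Among the 50 strongest, 9 of the 10 on X were at X tRNA genes, and among the 200 strongest, 50 of the 59 on X were.

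Weaker regions were common as well. A region of the pooled list lay at 160 X tRNA genes (58.0%) and at 215 autosomal ones (64.0%), against 61.3% of all nuclear tRNA genes and 7.64% of tiled X windows. Both replicate lists held a region at 127 X genes (46%) and at 175 autosomal genes (52.1%), against 49.3% of all nuclear tRNA genes and 2.56% of tiled X windows. At 46 further X genes only 1 replicate had a region. No list had a region at 101 X genes (36.6%) and at 103 autosomal genes (30.7%).

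Among tRNA genes with an IDR peak, those on X had the lower median rank, where rank 1 is the highest signal. That median was 163 on X and 292 on the autosomes, with median signals of 243 on X and 175 on the autosomes. The best rank was 9 on X and 28 on the autosomes. Over all tRNA genes with a pooled region the medians were close, at rank 631 on X and 654 on the autosomes, with median signals of 114 on X and 112 on the autosomes. None of these differences was tested.

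The replicates ranked the X genes alike. Over the 127 genes with a region in both lists, the Spearman correlation of the ranks was 0.918, a value across genes of 2 libraries that share their loci. The 2 replicates' summits were a median of 20 bp apart. Of the 88 genes with an IDR peak, 78 had a region among the 741 strongest of replicate 1, 81 among those of replicate 2, and 73 in both. Neither replicate placed 2 of the 88 among its 741 strongest.

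**Figure D1:**
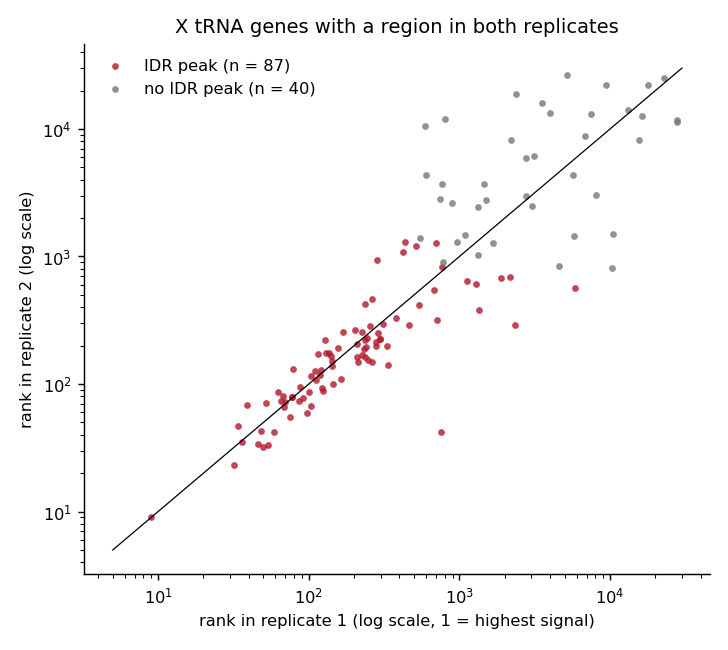
Rank of the strongest region within 100 bp of each X tRNA gene in replicate 1 (x axis) and replicate 2 (y axis), both on log scales, for the 127 genes with a region in both lists; the line marks equal ranks. Red points are the 87 of them with an IDR peak and grey points the 40 without; C04A11.t1 stands alone at rank 9 in both replicates.

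The gene of highest signal, C04A11.t1, encodes a leucine tRNA and is one of the 12 X genes with an annotated intron. Its region had a signal of 916 in the pooled list, 360 in replicate 1 and 558 in replicate 2, and ranked 9 in each of the 3 lists. It occurs once in the genome and is intergenic. The lysine gene W03G11.t1, 1 of 10 identical copies on X, came next with a pooled signal of 615 and ranks of 24, 32 and 23 in the pooled, replicate 1 and replicate 2 lists. Both have CT repeats in the 100 bases before the gene.

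Several of the strongest genes lie inside protein-coding genes. C02B4.t2, a tyrosine gene with an annotated intron, lies opposite to nhr-17, a nuclear hormone receptor gene, and ranked 31, 36 and 35 in the pooled, replicate 1 and replicate 2 lists. F17H10.t1 (glycine) lies in snx-17, a sorting nexin gene, with ranks of 36, 50 and 32. F41D9.t3 (asparagine) lies opposite to sulp-3, a sulfate permease family gene, with ranks of 38, 46 and 34. F38G1.t2 (aspartate) lies opposite to egl-17, which encodes a fibroblast growth factor, with ranks of 41, 34 and 47.

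C28G1.t1 (glutamate) is the single X tRNA gene that overlaps an exon, that of C28G1.2. It ranked 39, 54 and 33 in the pooled, replicate 1 and replicate 2 lists. R04D3.t2 (valine) is intergenic and ranked 43, 48 and 43.

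The alanine genes F15G9.t1 and F15G9.t2 in him-4, the hemicentin gene, share a peak of pooled signal 483 and rank 47. That summit lay inside F15G9.t1 and 95 bp from F15G9.t2. In replicate 1 the strongest region at F15G9.t1 ranked 59 and that at F15G9.t2 ranked 752, while in replicate 2 both genes had the region of rank 42. The peak is thus nearer to F15G9.t1 in the pooled list.

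Replicate ranks also differed at weaker genes. F52H2.t1 (aspartate) had a pooled rank of 671 and a replicate 1 rank of 812, with no region in replicate 2. F25F6.t2 (threonine) ranked 5817 in replicate 1 and 570 in replicate 2, and ZK154.t3 (glycine) ranked 2334 and 291. H08J11.t3 (glutamine) ranked 1349 in replicate 1 and 380 in replicate 2. The region given to each of these 3 genes ranked higher in replicate 2. At ZK154.t3 the replicates' regions differed, with summits at chrX:7794621 in replicate 1 and chrX:7794520 in replicate 2. A replicate 1 region of rank 295, with its summit at chrX:7794421, was given to the neighbour ZK154.t4.

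The limit of 100 bp decided few genes. Just inside it, the nearest IDR summit lay 87 bp from ZK154.t3, 94 bp from M02F4.t2 and 95 bp from F15G9.t2. Just outside it were T10B10.t1 at 102 bp, C53C7.t1 at 103 bp and ZK154.t4 at 109 bp. All 6 have another tRNA gene within 1000 bp.

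Summits sat at the start of the gene. Measured from the first base of the gene along its strand, the median summit of the 88 genes was at 7 bp, with quartiles at -15.3 and 30.3 bp. It was at 8.5 bp in replicate 1 and 8 bp in replicate 2. Summits lay inside the gene at 57 genes, upstream of it at 30 and downstream at 1. At the autosomal genes with an IDR peak the median was 11 bp, with 82 of 111 summits inside the gene. The spread within X was wider than the difference between the medians.

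**Figure D2:**
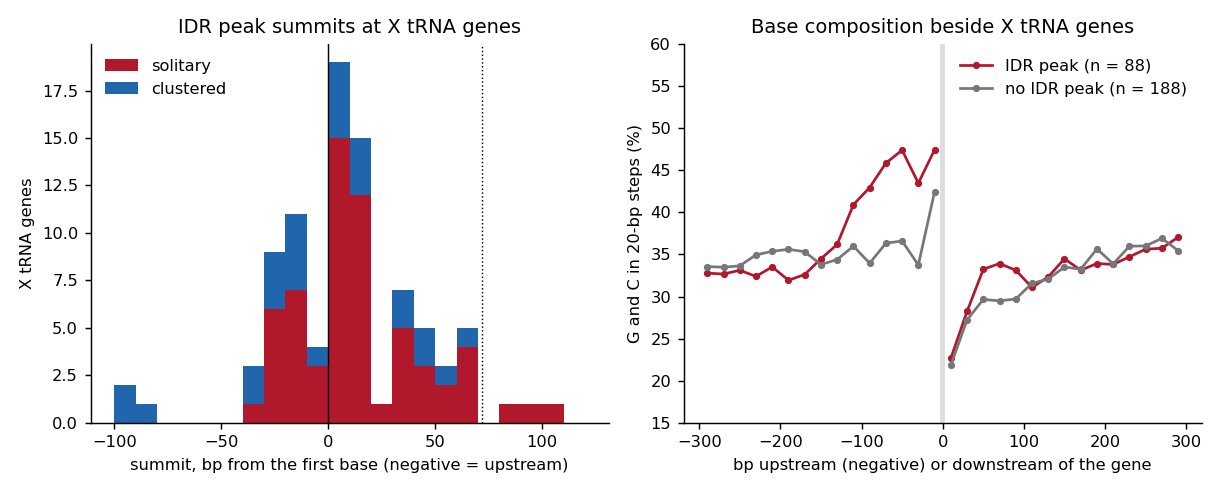
Left: IDR peak summits at the 88 X tRNA genes in 10-bp bins from the first base of the gene (solid line), with the median gene length of 72 bp dotted; red bars are solitary genes and blue bars, stacked on them, clustered genes. Right: percent of G and C in 20-bp steps beside X tRNA genes with an IDR peak (red, n = 88) and without (grey, n = 188). The curves part most over about 120 bp upstream, and less in the steps that start 41 to 81 bp downstream.

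The bases just upstream separated marked from unmarked genes. In the 100 bp before the gene, the median content of G and C (GC) was 45.5% at X genes with an IDR peak (quartiles 42 and 49%) and 36% at X genes without (32.0 and 41%). In the 100 bp after the gene it was 30% at genes with an IDR peak and 27% at those without. From beyond 100 bp out to 500 bp on each side it was 34.3% at genes with a peak and 34.6% at those without, a slight difference of the other sign. In the 20-bp step that starts 120 bp upstream, GC was still higher at genes with a peak, 40.9% against 36.0%. The feature, its window and the settings tried were chosen after the values were seen.

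The same split held in each replicate and on the autosomes. With the 741 strongest regions of replicate 1 as calls, median upstream GC was 46% at called X genes and 37% at the others. With those of replicate 2 it was 45% and 36.5%. At autosomal tRNA genes it was 48% with an IDR peak and 41% without. Within X, intron genes had 43% with a peak and 36.5% without, and intergenic genes 46% with a peak and 36% without.

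Most of the upstream difference was in cytosine against adenine. At X genes with an IDR peak the 100 upstream bases held 25.9% cytosine, 24.8% adenine, 19.5% guanine and 29.8% thymine. At X genes without one they held 19.5% cytosine, 31% adenine, 17.2% guanine and 32.4% thymine. By 20-bp steps, GC was 47.4% at genes with a peak and 36.6% at genes without in the step that starts 60 bp upstream. In the step that starts 200 bp upstream it was 31.9% at genes with a peak and 35.6% at genes without.

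Short CT and GA repeats were also more frequent before X genes with an IDR peak. The 100 bp before the gene held the CT repeat on the strand of the gene at 25 of the 88 X genes with an IDR peak (28.4%, 19.3 to 39%) and at 10 of the 188 without (5.32%, 2.58 to 9.56%). They held the GA repeat, which is the CT repeat on the other strand, at 18 of the 88 (20.5%, 12.6 to 30.4%) and at 8 of the 188 (4.26%, 1.86 to 8.21%). Either repeat, overlapping hits counted once, was present at 41 of the 88 genes (46.6%) and at 18 of the 188 (9.57%). Any 100 bp tiled along X held one in 6.77% of cases, so unmarked X genes were near that level. On the autosomes either repeat was present at 37 of 111 genes with an IDR peak (33.3%). It was at 34 of 225 autosomal genes without one (15.1%, 10.7 to 20.5%), above the level of the X windows.

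Read the other way, 41 of the 59 X tRNA genes with a repeat upstream had an IDR peak (69.5%, 56.1 to 80.8%), against 47 of the 217 without (21.7%, 16.4 to 27.7%). By replicate, the shares among the 741 strongest regions were 66.1% with a repeat and 19.8% without in replicate 1, and 71.2% and 18.4% in replicate 2. On the autosomes 37 of 71 genes with a repeat had an IDR peak (52.1%, 39.9 to 64.1%), against 74 of 265 without (27.9%, 22.6 to 33.7%). Downstream of X genes a repeat was found in 6 of 88 with a peak (6.82%) and 8 of 188 without (4.26%). Genes with a repeat also had the higher upstream GC, a median of 43% against 38%; the part of each in the other was not tested.

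Counted over both flanks, GC ordered the X genes steeply. An IDR peak was at 38 of 60 genes with over 38% GC in the 100 bp on each side (63.3%, 49.9 to 75.4%) and at 32 of 69 with over 34 to 38% (46.4%, 34.3 to 58.8%). It was at 16 of 76 with over 30 to 34% (21.1%, 12.5 to 31.9%) and at 2 of 71 with at most 30% (2.82%, 0.343 to 9.81%). The outermost classes do not overlap in their intervals. In replicate 1 the shares from the highest to the lowest class were 61.7, 39.1, 19.7 and 4.23%, and in replicate 2 they were 60, 40.6, 21.1 and 2.82%.

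Autosomal genes had lower shares in the same classes, although their share over all classes was like that of X. From the highest to the lowest class an IDR peak was at 63.3, 46.4, 21.1 and 2.82% of X genes and at 50.9, 20.6, 12.5 and 0% of autosomal genes. The X genes had a median flank GC of 34% and the autosomal genes 38.5%. In the class of over 34 to 38% the IDR intervals of X (34.3 to 58.8%) and autosomes (11.7 to 32.1%) did not overlap, and in the other 3 classes they did. With either replicate alone they overlapped in that class too, at 27.6 to 51.6% on X and 9.47 to 28.8% on the autosomes in replicate 1, and at 28.9 to 53.1% on X and 10.6 to 30.5% on the autosomes in replicate 2.

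X windows away from tRNA genes also had more IDR peaks at higher flank GC, at 0.514% of windows over 38% and 0.00345% of those at most 30%. Whether GC alters recovery of fragments in sequencing was not tested.

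**Figure D3:**
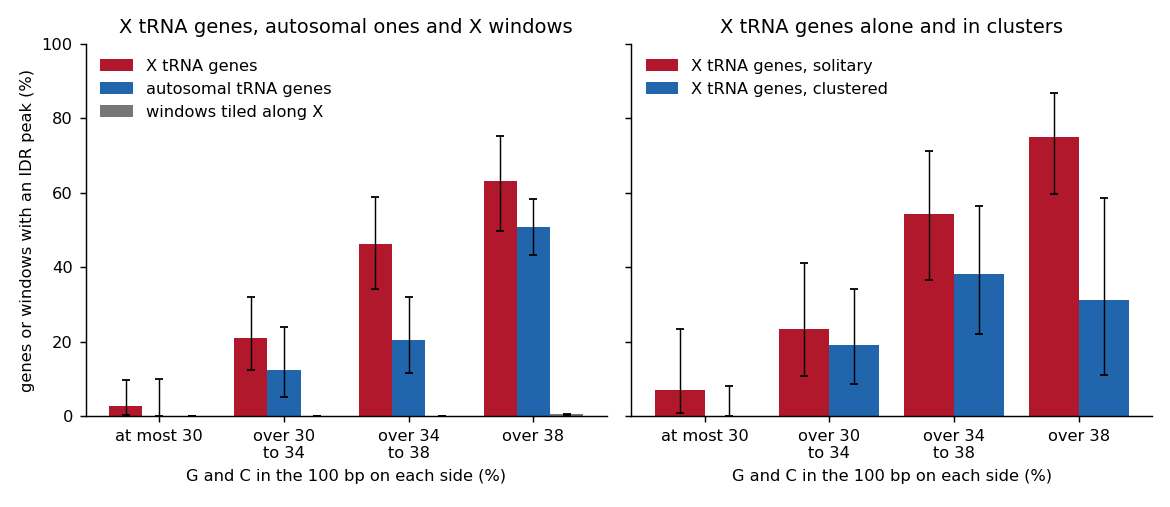
Percent of X tRNA genes, autosomal tRNA genes and windows tiled along X with an IDR peak (left), and of solitary and clustered X tRNA genes (right), by the percent of G and C in the 100 bp on each side; lines are exact 95% intervals. The share among X tRNA genes is 2.82% in the lowest class and 63.3% in the highest, and clustered genes are below solitary ones in each class.

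Identical copies give the closest comparison, since the gene itself is held constant. X holds 106 distinct tRNA gene sequences, and 20 of them have 5 or more copies there, 162 genes in all. All 20 sets contained both genes with an IDR peak (56) and genes without (106). In each of the 20, the median flank GC was higher in the copies with a peak, and the same was true with the calls of replicate 1 alone and of replicate 2 alone. Upstream GC alone was higher in 20 of the 20, by a median of 10 percentage points (range 1 to 16.5). Downstream GC alone was higher in 13 of the 20. In the lysine set of 10 copies, and in the histidine, serine and methionine sets, only 1 copy had a peak, so its value stands for the median. M02F4.t2 and F15G9.t2 count as copies with a peak through a summit that lay nearer to a neighbouring tRNA gene.

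Separation within a set was rarely complete. In 6 of the 20 sets every copy with a peak had higher flank GC than every copy without. The 6 include the lysine set of 10 copies, the histidine set and the methionine set, where only 1 copy had a peak. The 7 threonine copies were another of the 6. R11B5.t1, ZK563.t1 and F25F6.t2, with peaks, had flank GC of 47.5, 40.5 and 38%, and the 4 copies without had 27.5 to 35.5%. The 13 proline copies were at the other end, with a median of 35.5% at the 4 with a peak and 34.5% at the 9 without.

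In the proline set ranks ran from 100 at F46G11.t2 (36% flank GC) to no region at ZK678.t3 (35.5%), which lies in an intron of srxa-9. The nearest pooled summit was 3157 bp from ZK678.t3. A CT or GA repeat lay upstream of 24 of the 56 copies with a peak in the 20 sets (42.9%) and of 11 of the 106 without (10.4%).

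**Figure D4:**
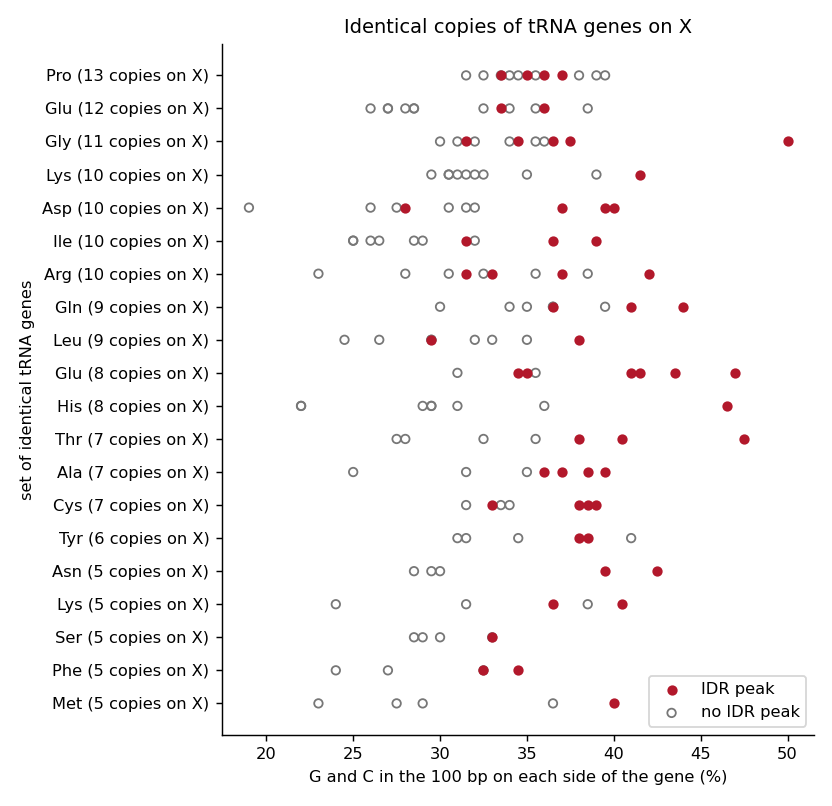
Percent of G and C in the 100 bp on each side of each X tRNA gene (x axis) for the 20 sets of identical genes with 5 or more copies on X (rows); filled red points have an IDR peak, open grey points have none, and equal values overlap. In all 20 rows the median of the red points is above that of the grey ones, least in the proline set.

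Genes that occur once were marked less often than those with identical copies. An IDR peak was at 78 of the 219 X genes with an identical copy in the nuclear genome (35.6%, 29.3 to 42.4%), against 10 of the 57 whose sequence occurs once (17.5%, 8.75 to 29.9%). The autosomal shares were 35.6% with copies and 25.6% without. The 2 intervals on X overlap at their edges, and median flank GC was 34% in both X groups. By number of copies, the share on X was 36.4% of 154 genes with 10 or more, 33.9% of 65 genes with 2 to 9, and 17.5% of the single ones.

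Besides C04A11.t1, the strongest single-copy genes were C16B8.t2 (proline, rank 86), C02B4.t1 (isoleucine, rank 118), F32A6.t1 (phenylalanine, rank 164) and R02E12.t1 (glycine, rank 249). F32A6.t1 lies in sto-2, a stomatin family gene, and the other 3 are intergenic. Their ranks in replicate 1 were 104, 119, 212 and 298, and in replicate 2 they were 67, 118, 149 and 224. All 4 were among the 741 strongest regions of each replicate.

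Reads that fit several places could be lost or shared at identical copies, and how the authors treated them is not given in the sources used here. As a check, the share of 31-base words in the gene and its flanks that occur once in the genome had a median of 77.5% at X genes with an IDR peak and 78.1% at X genes without. Of the 20 X genes with a share under 70%, 1 had an IDR peak (5.00%), against 87 of the other 256 (34%). Without those 20 genes the difference in median flank GC was the same 6 percentage points. Annotated tRNA pseudogenes on X, 29 in all, had no IDR peak, and the pooled list had a region at 2 of them.

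Copies shared between X and the autosomes were marked equally often. For 43 sequences present on both, an IDR peak was at 70 of the 185 X genes (37.8%) and at 84 of the 223 autosomal genes (37.7%). The median flank GC of these genes was 34% on X and 38.5% on the autosomes.

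Counted gene by gene, clustered tRNA genes were marked less often than solitary ones. With neighbours joined over gaps of up to 1000 bp, 135 X genes formed 54 clusters and 141 (51.1%) stood alone; on the autosomes 69.9% stood alone. An IDR peak was at 62 of the 141 solitary X genes (44.0%, 35.6 to 52.6%) and at 26 of the 135 clustered ones (19.3%, 13.0 to 26.9%). The intervals do not overlap. In replicate 1 the shares were 42.6% of solitary and 16.3% of clustered genes, and in replicate 2 they were 39.7 and 19.3%.

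By cluster size, the share was 12.3% of the 57 genes in clusters of 3 or more (5.08 to 23.7%) and 24.4% of the 78 genes in pairs (15.4 to 35.4%), with intervals that overlap. Autosomal genes had 37% when solitary and 23.8% when clustered. Median flank GC was 35% at solitary X genes and 33% at clustered ones, and in each class of flank GC the clustered genes had the lower share of IDR peaks. With the calls of replicate 2 this did not hold in the class of over 30 to 34%, where the shares were 20.6% of solitary and 21.4% of clustered genes. In the highest class an IDR peak was at 33 of 44 solitary genes (75%) and at 5 of 16 clustered ones (31.3%).

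Within clusters the marked genes were few. Of the 54 clusters, 32 had no gene with an IDR peak, 18 had 1 and 4 had 2. Counted by cluster, the share with at least 1 marked gene was thus close to the 44.0% of solitary genes. Clustered genes lay a median of 218 bp from the nearest other tRNA gene, and IDR peaks at X tRNA genes had a median width of 345 bp. The effect of this close spacing on the share per gene was not tested. All genes had a peak in 3 clusters, each a pair. In the pair M02F4.t1 and M02F4.t2, and in the pair F15G9.t1 and F15G9.t2, 1 peak was counted for both genes. Of these 3 pairs, only F25F6.t1 and F25F6.t2 had a separate peak each. In the cluster C16B8.t1 to C16B8.t3, C16B8.t1 (rank 244) and C16B8.t2 (rank 86) also had separate peaks, and C16B8.t3 had none. The rule can count 1 peak for 2 neighbours, and giving each peak to its nearest tRNA gene left 86 genes. Clusters were often uniform, with 1 isotype in 40 of the 54 and 1 sequence in 22.

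The 2 clusters with most genes held 6 each. F28H6.t2 to F28H6.t7 (chrX:14135045-14137010) are 6 identical histidine genes on alternating strands, and none had an IDR peak. The pooled list had a region at 2 of them, F28H6.t5 (rank 7597) and F28H6.t2 (rank 14624). Flank GC there was 22 to 31%, and the share of 31-base words that occur once had a median of 21.1%. C06G1.t1, an identical copy that stands alone in an intron of C06G1.1 with 46.5% flank GC, ranked 73 in the pooled list, 63 in replicate 1 and 86 in replicate 2. C49F5.t1, the other identical copy on X that stands alone, had 36% flank GC and no region in any list.

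The other cluster, F22F1.t2 to F22F1.t7 (chrX:8154445-8156707), holds 2 serine, 2 aspartate, 1 methionine and 1 isoleucine gene. F22F1.t6, the methionine gene, had the single IDR peak, of rank 216, with ranks of 169 in replicate 1 and 257 in replicate 2 and flank GC of 35.5%. F22F1.t5 (rank 1852) and F22F1.t2 (rank 5862) had weaker pooled regions. F22F1.t3, F22F1.t4 and F22F1.t7 had no pooled region. The marked gene had the highest flank GC of the 6.

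The share differed between stretches of X, and of 3 segments the left one had the highest. With X cut into 3 segments of equal length, of the 51 genes in the left segment 26 had an IDR peak (51.0%, 36.6 to 65.3%), against 30 of 107 in the middle segment (28%, 19.8 to 37.6%) and 32 of 118 in the right segment (27.1%, 19.4 to 36.1%). In replicate 1 the shares from left to right were 45.1, 25.2 and 27.1%, and in replicate 2 they were 49, 25.2 and 25.4%. The left segment had more solitary genes (60.8%, against 48.6 and 49.2%). Among solitary genes alone the shares were 61.3, 36.5 and 41.4% from left to right, and among clustered genes 35, 20 and 13.3%. Over all genes, the interval of the left segment overlaps that of the middle one at its edge but not that of the right one. The part of spacing was not tested. By single megabases the share moved up and down, at 1 of 12 genes in megabase 8 (8.33%), 5 of 6 in megabase 7 (83.3%), 5 of 13 in megabase 6 (38.5%) and 9 of 15 in megabase 13 (60%), counted from the left end. Megabase 9 held the most genes, 51, and 11 of them (21.6%) had a peak.

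**Figure D5:**
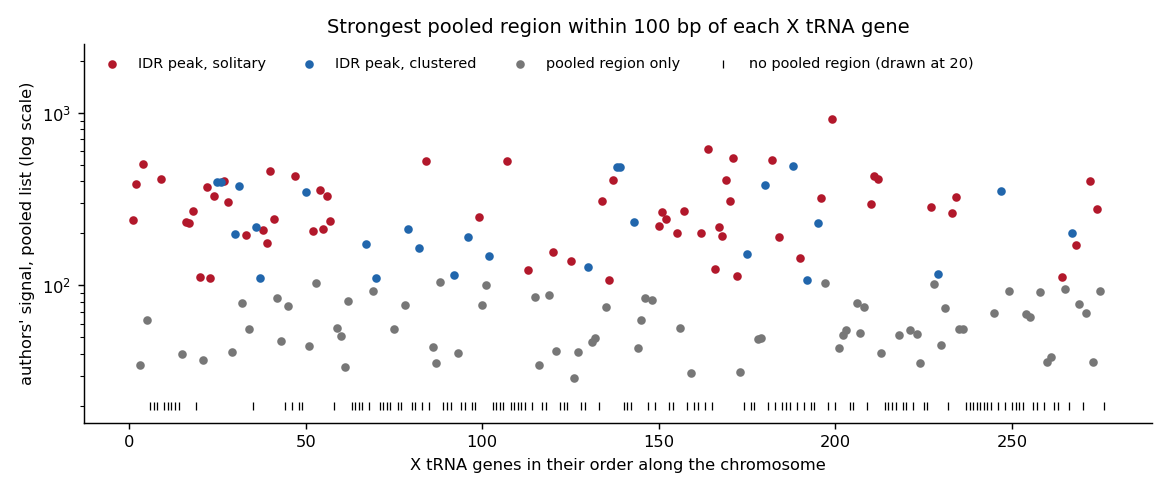
Authors' signal of the strongest pooled region within 100 bp (y axis, log scale) for the 276 X tRNA genes in their order along the chromosome (x axis). Red points are solitary and blue points clustered genes with an IDR peak, grey points have a weaker pooled region, and ticks, drawn at 20, mark genes with no pooled region; the highest point, at 916, is C04A11.t1.

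Introns and intergenic sequence hardly differed. An IDR peak was at 31 of the 95 X genes in introns of protein-coding genes (32.6%, 23.4 to 43%) and at 56 of the 180 intergenic ones (31.1%, 24.4 to 38.4%). On the autosomes the shares were 34.6% in introns and 30.9% between genes. Within X introns the peak was at 18 of 45 genes opposite to their host (40%, 25.7 to 55.7%) and at 13 of 50 on its strand (26%, 14.6 to 40.3%), with intervals that overlap.

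The intron genes lie in 67 host genes, of which 16 hold 2 or more tRNA genes. K01A12.3 and ajm-1, an apical junction gene, hold 5 each, and 1 of each 5 had an IDR peak. Other hosts of strong tRNA genes were cat-1, the vesicular monoamine transporter gene, with the serine gene E03E2.t1 (rank 62), and fbxl-4 with the phenylalanine gene T28B4.t1 (rank 105).

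All 20 standard isotypes are on X, and each had at least 1 gene with an IDR peak. Arginine has the most genes, 27, of which 6 (22.2%) had one, followed by glutamate with 8 of 23 (34.8%), glycine with 9 of 20 (45%) and proline with 6 of 20 (30%). The share was highest for cysteine, 4 of 7 (57.1%), and alanine, 7 of 13 (53.9%). It was lowest for lysine, 3 of 18 (16.7%), and tryptophan, 1 of 5 (20%). The pooled list had a region at all 13 alanine genes. With so few genes per isotype these shares are loose.

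Several isotypes differed from their autosomal genes in the share, though none was tested. Lysine had 16.7% on X and 46.4% of 28 on the autosomes, arginine 22.2% on X and 47.1% of 17, and alanine 53.9% on X and 23.8% of 21. Median flank GC on X was 31.8% at lysine, 33% at arginine and 36% at alanine genes. The 3 X genes with no isotype in the annotation had no region in the pooled list.

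The strongest gene of each isotype was always within the IDR set. Those not named above were F28H6.t1 for arginine (rank 68), R01H5.t1 for threonine (72), R04A9.t1 for glutamine (79), C02F12.t1 for methionine (122) and F42D1.t1 for cysteine (131). The lowest of the isotypes' best genes was sup-7, a tryptophan gene known for amber suppressor alleles, at rank 215 with ranks of 279 and 199 in replicates 1 and 2.

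Elements of the genes themselves were compared in the same way. The B box core GGTTCGA, searched on the strand of the gene, was in 177 X genes (64.1%), in 64.9% of autosomal genes and, on either strand, in 0.390% of tiled X windows. An IDR peak was at 54 of those 177 (30.5%, 23.8 to 37.9%) and at 34 of the 99 without the core (34.3%, 25.1 to 44.6%), with intervals that overlap. The pooled list had a region at 53.7% of genes with the core and 65.7% of those without. A run of 4 or more T in the 30 bp after the gene followed 273 of the 276, and all 88 genes with a peak were among them. Of the 12 X genes with an annotated intron, 6 had a peak (50%, 21.1 to 78.9%), against 82 of 264 others (31.1%), and so few genes leave the interval wide.

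The octamer ATGCAAAT, the letters best known for POU factors, was about as frequent at these genes as along X. It lay in the gene or its 100-bp flanks, on either strand, at 5 X tRNA genes (1.81%, 0.591 to 4.18%), at 2 autosomal ones (0.595%) and in 2.63% of X windows of like length. An IDR peak was at 1 of the 5, and a pooled region at 5 of the 5, against 57.2% of the X genes without the octamer. A match describes letters only, and nothing about CEH-6 follows from the absence of one.

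Protein-coding genes of the tRNA pathway were looked up as well. An IDR peak whose summit lay in the gene or 1 to 1000 bp upstream of a transcript start was at 633 of the 19985 protein-coding genes (3.17%). It was at 2 of the 21 aminoacyl-tRNA synthetase genes found (9.52%), which charge tRNAs with amino acids. These were fars-1, for phenylalanine (signal 264, rank 145), and tars-1, for threonine (signal 106, rank 736). Of 10 genes of RNA polymerase III and its factors, it was at 0. With lists this short, neither count sets the pathway apart from other genes.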

How the data were processed

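Regions at tRNA genes were taken from the lists deposited for the 2 replicates, for their pooled reads and for the IDR peaks. The signal value of each region is the authors' own, on an unstated scale. A single control set served all lists, per the deposited notes, and the regions are on ce11, per the labels. The aligner, the peak caller and the treatment of reads that fit several places were not given in the sources used here. Read depth is unknown. Genes came from Ensembl release 115 of WBcel235, the assembly that ce11 names. Isotypes and sequence came from its RefSeq copy, and every nuclear tRNA gene had the same span and strand in both. Identity meant the same annotated gene sequence.

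Everything reported is a count, share, median or rank, with exact Clopper-Pearson 95% intervals and no test, since 2 samples form 1 group. The named genes followed a written rule: the 10 strongest, the strongest of each isotype, the ends of the largest identical set, the clusters with most genes, the 5 strongest single-copy genes, the 5 with the most different replicate ranks and 3 on each side of the distance limit. The members, the lists and the rule were chosen with earlier results of these data known. Flanking and upstream GC, the CT and GA repeats, the 3 segments of X, the 31-base words, the pseudogenes and the 20 identical sets were chosen after values were seen, and further genes were named as their examples. Flanks include bases of close neighbours. The assignment of regions was tested on simulated data. Python 3.11.15, NumPy 2.4.6, pandas 2.3.3 and SciPy 1.17.1 were used.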

Additional observations from a re-analysis of the deposited data

How the results depend on the processing

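Across 10 results and 49 alternatives, 36 values stayed close to the reported one, 12 moved and 1 changed sign. The limits for close were wide: counts within a fixed fold range, and shares within the interval of the reported share. Median offsets and GC differences had to stay within the spread of the 2 replicates. The number of X tRNA genes with an IDR peak was 88. With the 741 strongest regions of either replicate in place of the IDR peaks it was 82. It ranged from 72 with the 370 strongest pooled regions in their place to 109 for IDR peaks with a 500-bp limit. The number with a region in both replicates, 127, was 177 with a 500-bp limit, which counted as close. It was 148 to 152 in 1 list alone and 73 with the 741 strongest regions of each. The values for 1 replicate that follow use its 741 strongest regions. The share with a peak, 31.9%, was 17.5% among sequences that occur once and 44.0% with no other tRNA gene within 1000 bp; it was 29.7% in either replicate alone. The median summit at 7 bp was at -29.3 bp from the gene middle, at 9 bp in genes with no near neighbour and at 5.5 to 8.5 bp in 1 replicate. Differences in median flank GC (chosen after seeing the data, as were their settings), 6 percentage points, were 4 with 50 bp, 2.38 with 200 bp, 9.5 upstream only, 3 downstream only, 6.5 in genes with no near neighbour and -0.25 from beyond 100 bp out to 500 bp; it was 6 in either replicate. The cause of these shifts was not tested. Other values in 1 replicate were 32.9 to 33.3% for genes with identical copies, 27.4 to 28.4% for introns, 29.9 to 30.5% for genes with the B box and 39.7 to 42.6% for solitary genes. No paired analysis was possible because the 2 samples form 1 group. Depth is unknown, so a gene with no region may lie under the limit of detection.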
